A study of Mus musculus with 6 samples.

Results

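Genes that carry out or report signalling through the transcription factor NF-kB were followed in immune cells of the mouse central nervous system: Nfkbia, Nfkbiz, Nfkb1, Nfkb2, Tnfaip3, Tnf, Bcl3, Cd14, Sod2 and Icam1. They were taken by symbol, and all 10 were found among the 28692 genes counted. The cells came from C57BL/6 mice, either wild type (WT) or lacking the microRNA miR-155 (miR-155KO, written KO), labelled as experimental autoimmune encephalomyelitis (EAE), a mouse model of multiple sclerosis, at day 0, 13 or 21. A single droplet library of 3' ends stood for each genotype at each day, made from live, DAPI-negative, CD45-positive sorted cells, with 5 mice per group. The labels name brain as the tissue and their protocol also names spinal cord. In the titles, both libraries of a day carry a number of their own that those of other days lack, and what it marks cannot be told apart from day. Raw counts of unique molecular identifiers (UMIs) were summed per library over cells that passed a marker gate for 1 cell class and no other, and are given as CPM, that is scaled to the same class total in every library.

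NF-kB is a family of dimeric transcription factors held in the cytoplasm by inhibitor proteins and released when receptors for cytokines or microbial products activate the IkB kinases. Many of its targets are its own inhibitors, so that a lasting signal raises both the inflammatory genes and the genes that switch the signal off. Microglia, monocytes and neutrophils use the pathway to make cytokines and adhesion molecules in EAE, and miR-155 is a microRNA induced in activated leukocytes.

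The deleted microRNA is shown because it defines the groups, with its seed, bases 2 to 8, in capitals. Its sequence is from RefSeq (GRCm38.p6, chr16:84714143-84714165, plus strand).
mmu-miR-155-5p: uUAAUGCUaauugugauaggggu

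Promoter windows of 300 bases, from 250 before to 50 after the annotated start, are shown for the 4 genes that held a match and were lower in KO monocyte/macrophage-like cells on day 21, with matches to the kappaB consensus in capitals. RefSeq windows (GRCm38.p6) were found for 7 of the 10 genes and none for Nfkbiz, Nfkb1 or Cd14. On either strand, with overlapping matches counted apart, 5 of these 7 genes held a match (Nfkbia, Nfkb2, Tnfaip3, Bcl3 and Sod2), against 9.55% of 27025 genes in the table. The first Nfkb2 window held 3 matches, and 3 or more were found in 0.186% of 32851 windows, and the windows of Tnf and Icam1 held none. A match is a description of these letters and not evidence of binding.
Nfkbia, chr12:55492598-55492897, minus strand: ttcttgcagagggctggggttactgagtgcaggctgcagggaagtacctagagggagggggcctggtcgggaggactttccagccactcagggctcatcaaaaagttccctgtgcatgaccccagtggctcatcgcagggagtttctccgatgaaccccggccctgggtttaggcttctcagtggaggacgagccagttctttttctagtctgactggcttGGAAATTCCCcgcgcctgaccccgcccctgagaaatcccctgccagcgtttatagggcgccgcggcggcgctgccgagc
Nfkb2, chr19:46304487-46304786, plus strand: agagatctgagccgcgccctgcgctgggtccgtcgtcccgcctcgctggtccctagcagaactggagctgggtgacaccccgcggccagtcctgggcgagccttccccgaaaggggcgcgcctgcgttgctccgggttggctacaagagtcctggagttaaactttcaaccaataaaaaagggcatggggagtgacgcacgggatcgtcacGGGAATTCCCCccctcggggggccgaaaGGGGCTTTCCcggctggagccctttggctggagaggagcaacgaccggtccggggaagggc
Bcl3, chr7:19822706-19823005, minus strand: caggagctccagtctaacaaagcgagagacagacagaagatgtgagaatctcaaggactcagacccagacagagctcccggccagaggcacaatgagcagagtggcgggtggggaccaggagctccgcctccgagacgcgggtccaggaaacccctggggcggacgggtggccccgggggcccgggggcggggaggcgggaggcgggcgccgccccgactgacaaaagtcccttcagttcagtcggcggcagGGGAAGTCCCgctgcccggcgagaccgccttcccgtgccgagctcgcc
Sod2, chr17:13007589-13007888, plus strand: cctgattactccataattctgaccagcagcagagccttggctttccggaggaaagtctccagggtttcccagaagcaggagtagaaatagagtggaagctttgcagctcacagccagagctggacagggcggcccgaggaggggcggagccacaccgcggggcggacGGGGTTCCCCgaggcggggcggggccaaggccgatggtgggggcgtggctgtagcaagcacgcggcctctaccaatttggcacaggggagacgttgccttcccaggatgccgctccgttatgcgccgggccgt

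The 6 libraries held 1681 to 5630 barcodes each, with a median of 3019 to 4368.5 UMIs per barcode. Of 20007 cells kept, 15664 passed exactly 1 gate, and 18.3% passed several gates and were left out, the most frequent pair being microglia with T markers. Reads from the miR-155 host transcript Mir155hg followed the labels, at 2, 45 and 59 UMIs in WT on days 0, 13 and 21 and 0, 0 and 1 in KO. Libraries shared 5 to 32 cell barcodes with one another. Classes are named after their markers, as microglia-like and so on, and a class entered a comparison with at least 50 cells in a library. The KO library of day 0 held 38 monocyte/macrophage-like cells and is not used for that class.

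The 10 genes differed first by cell class. Each class was compared with the mean of the other classes by edgeR's quasi-likelihood test on the summed counts, with library as a block. Of the 70 gene and class values, 33 passed an adjusted p of 0.05. Calls were common among all genes too, from 9.66% higher and 8.7% lower in NK-like cells to 31.9% and 32.9% in neutrophil-like cells. Differences are log2, and adjusted p-values run over all 10246 genes tested. Classes of a library share its handling, and a difference in a sum does not separate fewer positive cells from less RNA per cell.

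**Figure D1:**
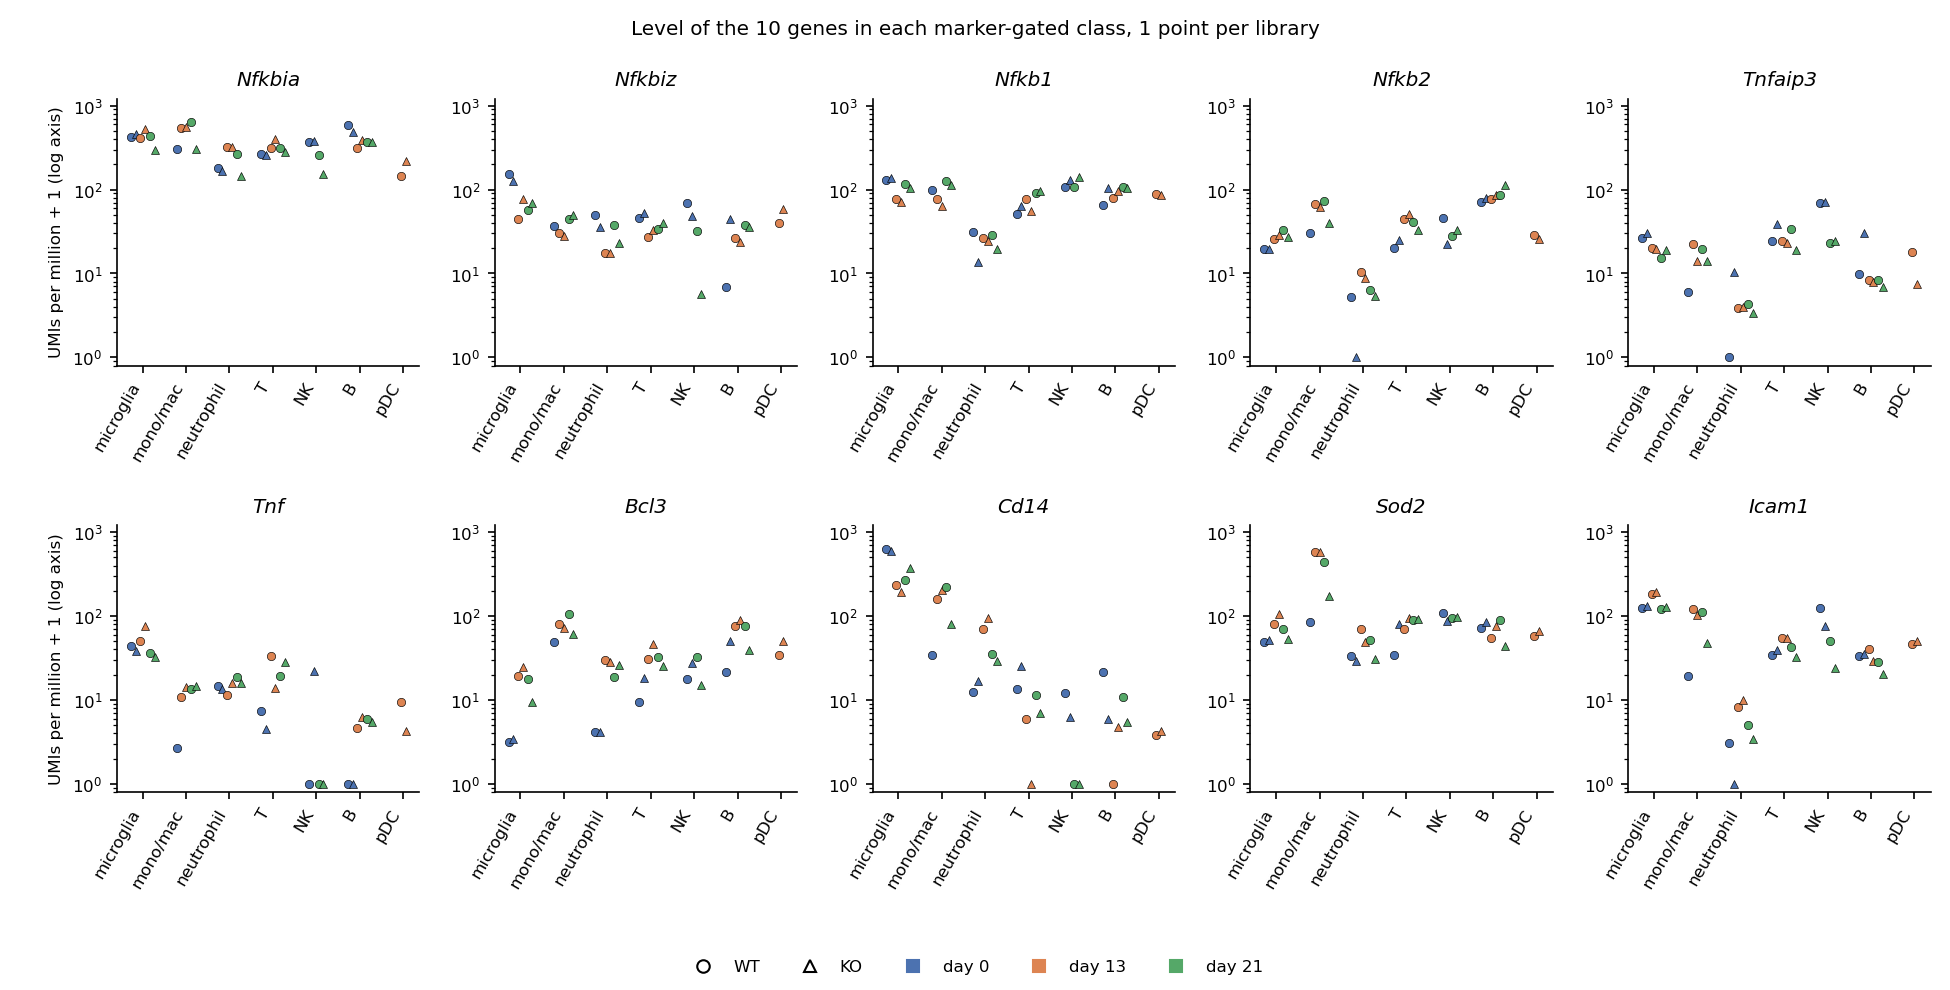
Level of each of the 10 genes by cell class; the log axis is CPM plus 1, and each point is 1 library with at least 50 cells of the class (circles WT, triangles KO, colour by day). Cd14 lies between 193 and 628 CPM in microglia-like cells, and Sod2 reaches 578 CPM in monocyte/macrophage-like cells of day 13.

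In monocyte/macrophage-like cells, 7 of the 10 genes were higher than in the other classes and 0 were lower, where 29.3% of all genes were higher and 15% lower. The count was 6 higher and 0 lower with class-total scaling and with DESeq2 size factors. The median difference of the 10 genes was 0.86, against 0.07 for all genes. Sod2, the mitochondrial superoxide dismutase, was higher by 2.37 (SE 0.17, adjusted p = 8.39e-14), and Cd14, a co-receptor that presents bacterial lipopolysaccharide to TLR4, by 3.38 (SE 0.403, adjusted p = 1.31e-08). Bcl3, a nuclear IkB protein that binds p50 and p52 dimers, was higher by 1.46 (SE 0.192, adjusted p = 9.5e-08), and the adhesion molecule Icam1 by 1.16 (SE 0.177, adjusted p = 1.6e-06). Nfkb2, which encodes p100, the precursor of p52, was higher by 1.02 (SE 0.134, adjusted p = 9.39e-08), and Nfkbia, which encodes the cytoplasmic inhibitor IkBa, by 0.71 (SE 0.131, adjusted p = 3.36e-05). Nfkb1, the gene of p105 and p50, passed by little at 0.32 (SE 0.13, adjusted p = 0.0422), and its adjusted p was 0.0866, 0.238 and 0.126 without the WT library of day 13, the WT library of day 21 or the KO library of day 21.

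The same class was high for other genes of the pathway, and was not alone in this. Among 32 other NF-kB target genes, 25 were tested, 19 were higher and 1 lower, and the median was 2.43. The smallest adjusted p-values were those of Saa3, an acute-phase protein (7.42), the chemokine Ccl2 (3.45), the cytokine Il1b (5.77) and the lectin receptor Clec4e (5.26). Of 25 receptors and adaptors tested, 20 were higher and 1 lower, among them the TNF receptor gene Tnfrsf1a (2.38), Ltbr (3.27), Tlr2 (3.35) and the adaptor Myd88 (1.70). Of 31 subunit, kinase and inhibitor genes, 13 were higher and 4 lower (median 0.25), with Tnip3, which encodes an A20-binding inhibitor, at 4.78. In microglia-like cells 15 of 25 other targets were higher and 2 lower (median 1.96), and 16 of 25 receptors and adaptors higher and 2 lower (median 1.63). In neutrophil-like cells 13 of 25 were higher in each of these 2 lists, with 5 and 4 lower (medians 0.79 and 0.70). Of all genes in that class, 31.9% were higher and 32.9% lower. Class-total scaling moved the median of all genes there by -1.15, and the lists were not recounted under it. Of the 31 subunit, kinase and inhibitor genes, 15 were higher and 2 lower in B-like cells (median 0.39). Of all genes, 29.3% were higher and 15% lower in monocyte/macrophage-like cells. These shares were 35.9% and 25.3% in microglia-like cells and 21.9% and 17.6% in B-like cells.

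Microglia-like cells were high in Cd14, Tnf, Icam1 and Nfkbiz. In all, 4 of the 10 genes were higher and 3 lower, where 35.9% of all genes were higher and 25.3% lower. With scaling by the class total in place of trimmed means the split was 7 higher and 1 lower, and with DESeq2 size factors 7 higher and 3 lower. Cd14 was higher by 4.71 (SE 0.362, adjusted p = 1.93e-13), and Icam1 by 1.95 (SE 0.158, adjusted p = 6.73e-13). Tnf, the cytokine that is both a product and an inducer of NF-kB, was higher by 2.25 (SE 0.245, adjusted p = 8.25e-10), and Nfkbiz, which encodes the nuclear cofactor IkBz, by 0.88 (SE 0.171, adjusted p = 3.54e-05). Bcl3 was lower, at -1.92 (SE 0.231, adjusted p = 7.59e-09). Sod2 (-0.59) and Nfkb2 (-0.48) were also lower, and both missed the threshold with class-total scaling (adjusted p = 0.118 and 0.164). Without the KO library of day 13 the adjusted p of Nfkb2 was 0.0683. Beside this, 19 of 22 immediate early and dissociation genes, which are induced when tissue is taken apart, were higher in microglia-like cells, with a median of 1.79, and their part in the higher members was not tested.

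Cd14 also differed between microglia-like and B-like cells by the share of cells. With each cell thinned to 1500 UMIs, 58.5% and 59.5% of microglia-like cells of day 0 (WT and KO) had a Cd14 UMI, and 0% of B-like cells of either library. The B-like share was at most 1.09% in any library, at median depths of 1926 to 2514 UMIs against 2158 to 3207.5 in microglia-like cells. Without thinning, the microglial shares of day 0 were 81.7% and 81.6%, and at most 4 cells of a class and library were too shallow to thin.

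Neutrophil-like cells were low for the adhesion and subunit genes. Icam1 was lower, at -2.54 (SE 0.284, adjusted p = 1.37e-09), Nfkb2 at -1.57 (SE 0.198, adjusted p = 1.79e-08), and Nfkb1 at -0.81 (SE 0.151, adjusted p = 1.74e-05). Tnfaip3, the gene of the ubiquitin-editing inhibitor A20, was lower, at -1.47 (SE 0.31, adjusted p = 0.000106). Cd14 was higher by 2.50 (SE 0.446, adjusted p = 9.84e-06). In all, 4 genes were higher and 4 lower, against 31.9% and 32.9% of all genes, but class-total scaling gave 1 higher and 8 lower, since it moved the median of all genes in this class by -1.15. The calls that turned were Nfkbia, which was 0.67 with trimmed means and -0.51 with class totals, and Nfkbiz, which was 0.55 and -0.64. Tnf was 1.72 and kept its sign but not its call (0.55, adjusted p = 0.113). By CPM, neutrophil-like Nfkbia was 178 and 167 CPM on day 0 (WT, then KO), 319 and 321 on day 13, and 261 and 146 on day 21.

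Lymphocytes stood out for single members. B-like cells were higher in Nfkb2, by 1.74 (SE 0.14, adjusted p = 2.53e-12), and in Bcl3, by 1.11 (SE 0.219, adjusted p = 9.69e-05). Their Nfkb2 levels were 70.4 and 78.3 CPM on day 0 (WT, then KO), 75.5 and 84.1 on day 13, and 84.2 and 112 on day 21, and all 6 lay above the T-like range of 19.0 to 49.8 CPM. Tnfaip3 was higher in T-like cells by 0.85 (SE 0.209, adjusted p = 0.00139) and in NK-like cells by 1.37 (SE 0.347, adjusted p = 0.0039). Over all 10 genes, B-like cells had 3 higher and 4 lower (21.9% and 17.6% of all genes), T-like cells 1 and 0 (24% and 13.9%), and NK-like cells 1 and 0 (9.66% and 8.7%). Class-total scaling changed the B-like split to 3 and 2, the T-like one to 2 and 0 and the NK-like one to 3 and 0, and DESeq2 size factors the T-like one to 1 and 1. The B-like calls of Nfkbia (0.40), Icam1 (-0.64), Nfkbiz (-0.64), Tnf (-1.72) and Tnfaip3 (-0.83) were each lost without at least 1 library: without the KO library of day 13 for Icam1 and Tnfaip3 (adjusted p = 0.244 and 0.0697) and without the WT library of day 0 for Nfkbia and Nfkbiz (0.0595 and 0.173). Tnf was -0.69, with no call, without the KO library of day 0. The NK-like call was lost with classes taken from clusters (adjusted p = 0.0885). Plasmacytoid dendritic-like cells, which had enough cells only on day 13, had 0 higher and 2 lower (13.8% and 9.57% of all genes; 0 and 1 with class-total scaling), and the lower genes were Nfkbia at -1.43 and Sod2 at -1.30; the latter had an adjusted p of 0.0757 and 0.148 without the WT or the KO library.

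Day of disease was followed most fully in microglia-like cells. Between day 0 and day 13, 5 of the 10 genes rose and 3 fell (edgeR, genotype as covariate, 2 libraries a day), where 16.9% of 10436 genes rose and 13.7% fell. The median of the 10 was 0.51 and that of all genes -0.02. Scaling by class totals lowered the median of all genes by 0.23, so a small rise is relative to the other genes of the class. Here and below, p-values measure only the spread between these libraries. The edgeR test estimates that spread with the help of all genes, since 2 libraries a day hold little about 1 gene.

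**Figure D2:**
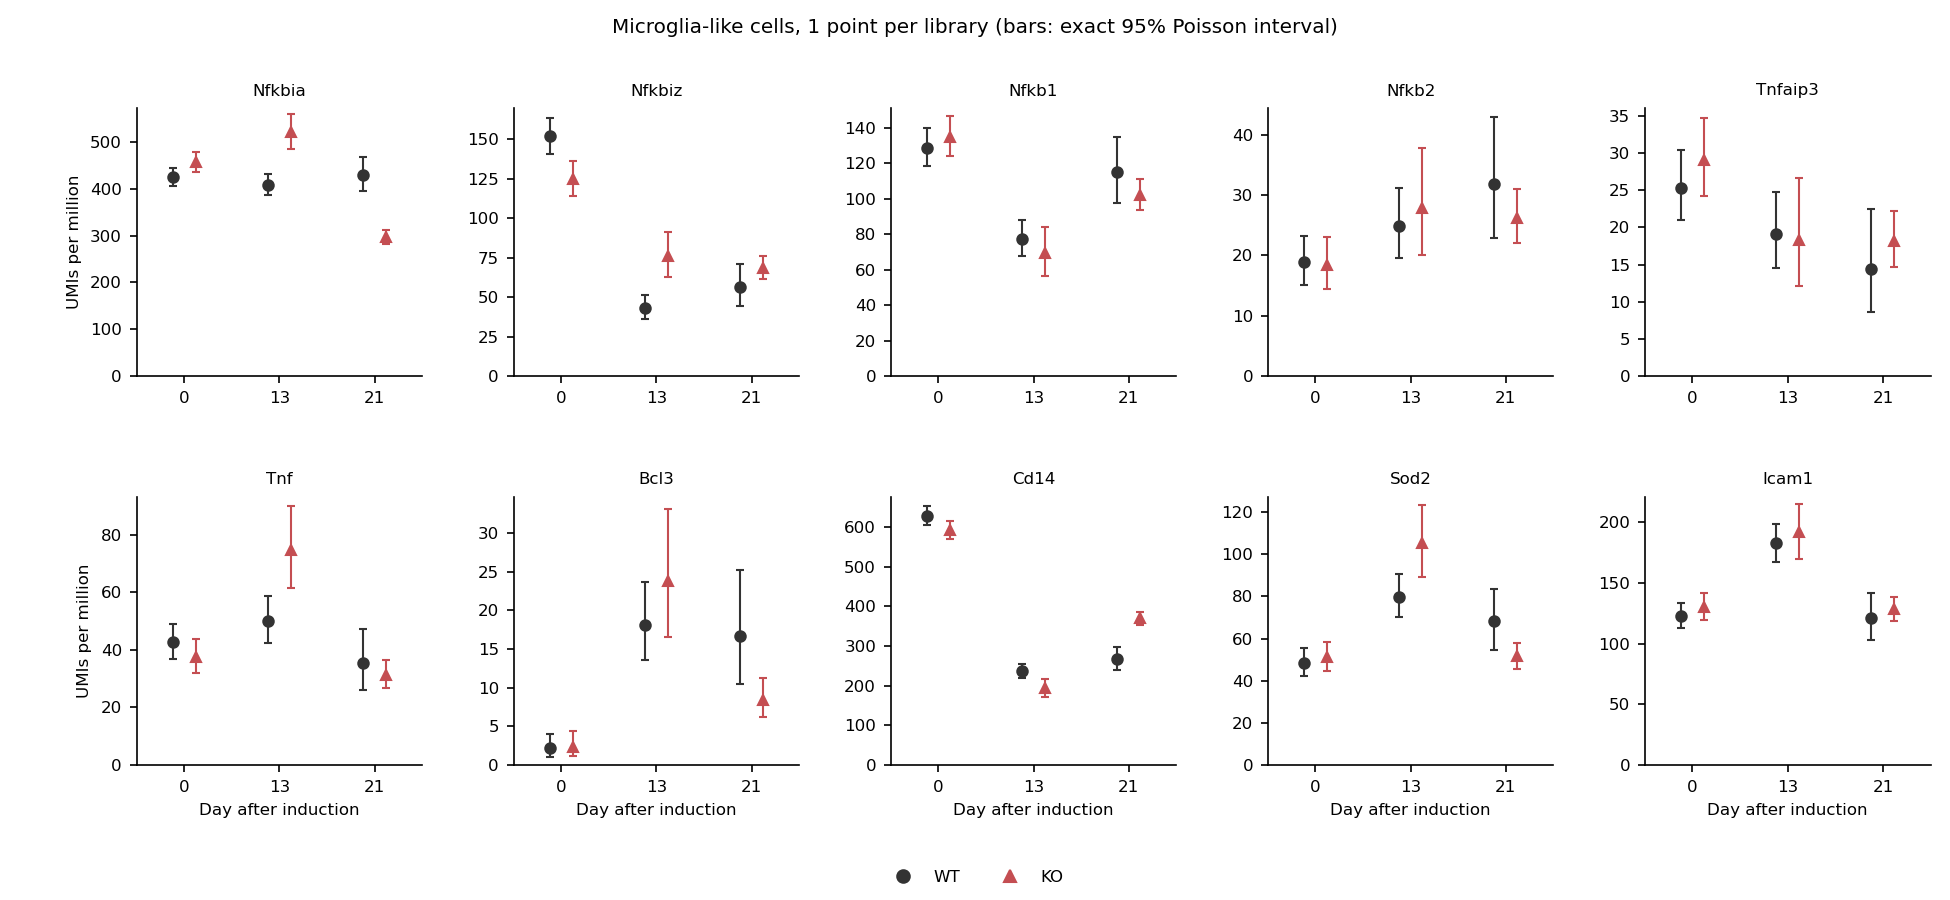
Level of the 10 genes in microglia-like cells by day after induction, in CPM; circles are WT and triangles KO, 1 library each, and bars are exact 95% Poisson intervals. Bcl3 is at 2.17 and 2.39 on day 0 and at 18.1 and 23.8 on day 13, and Cd14 falls from 628 and 592 to 236 and 193.

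Among the IkB genes and Tnfaip3, Bcl3 stood at 2.17 and 2.39 CPM on day 0 (WT, then KO), 18.1 and 23.8 on day 13, and 16.7 and 8.43 on day 21. All 4 libraries of the later days lay above both of day 0, which held 10 Bcl3 UMIs each in this class. The difference was 3.37 (SE 0.399, adjusted p = 3.26e-05) on day 13 and 2.52 (SE 0.429, adjusted p = 0.00132) on day 21, and both calls held under every alternative run. Nfkbiz moved the other way, with 152 and 125 CPM on day 0 (WT, then KO), 43.3 and 76.1 on day 13, and 56.8 and 68.4 on day 21. The day 0 libraries were the highest and did not overlap with the rest. Nfkbiz fell by 1.05 (SE 0.209, adjusted p = 0.00199) on day 13 and fell by 0.89 (SE 0.205, adjusted p = 0.0102) on day 21, but without the WT library of day 0 the values were -0.64 and -0.52, with adjusted p of 0.145 and 0.393. For Nfkbia the levels were 424 and 457 CPM on day 0 (WT, then KO), 408 and 520.3 on day 13, and 430.0 and 297 on day 21, and Tnfaip3 ran from 14.4 to 29.1 CPM, and neither passed the test on either day.

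The subunit genes split. Nfkb1 stood at 129 and 135 CPM on day 0 (WT, then KO), 77.2 and 69.3 on day 13, and 115 and 102 on day 21. Day 13 was lowest in both genotypes, and Nfkb1 fell by 0.61 (SE 0.151, adjusted p = 0.00762), a call lost without either day 0 library (adjusted p = 0.0761 without WT and 0.200 without KO). Nfkb2 levels were 18.8 and 18.4 CPM on day 0 (WT, then KO), 24.8 and 27.8 on day 13, and 31.8 and 26.2 on day 21. Nfkb2 rose by 0.71 (SE 0.203, adjusted p = 0.0177) and 0.85 (SE 0.194, adjusted p = 0.00984). On day 13 its adjusted p was 0.217, 0.109 and 0.133 without the WT or KO library of day 0 or the KO library of day 13, and on day 21 it was 0.169 and 0.120 without the WT or KO library of day 0.

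Of the targets, Cd14 had 628 and 592 CPM on day 0 (WT, then KO), 236 and 193 on day 13, and 267 and 369 on day 21. Cd14 was highest on day 0 in both genotypes. It fell by 1.27 (SE 0.177, adjusted p = 0.000126) on day 13, under every alternative run, and fell by 0.67 (SE 0.173, adjusted p = 0.0189) on day 21, where the call was lost without the WT or the KO library of day 0 (adjusted p = 0.368 and 0.181). The thinned share of cells with a Cd14 UMI went from 58.5% and 59.5% on day 0 to 28.5% and 22.6% on day 13 and 31.5% and 41.6% on day 21. Sod2 stood at 48.5 and 51.1 CPM on day 0 (WT, then KO), 79.9 and 105 on day 13, and 68.1 and 51.5 on day 21. It rose by 1.10 (SE 0.182, adjusted p = 0.000499), also under every alternative run. Icam1 rose by 0.80 (SE 0.14, adjusted p = 0.000798) on day 13, from 123 and 130.0 to 183 and 192 CPM, and stood at 121 and 128 on day 21. Its adjusted p was 0.0877 without the WT library of day 0. Tnf rose by 0.82 (SE 0.195, adjusted p = 0.00607), and its adjusted p was 0.154 without the KO library of day 0 and 0.149 without that of day 13.

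On day 21 against day 0, 2 genes were higher (Bcl3 and Nfkb2) and 2 lower (Nfkbiz and Cd14), where 10.1% of all genes were higher and 5.14% lower; class-total scaling gave 2 and 3. Between days 13 and 21, 0 of the 10 passed (1.98% of all genes did), and 1 was lower with DESeq2 size factors. In edgeR, 6 of the 10 had an unadjusted p under 0.05, as did 1574 of 10436 genes. Other NF-kB target genes were read beside them. On day 13, 14 of 24 tested rose and 4 fell, with a median of 1.07, and the smallest adjusted p-values were those of the adhesion molecule Vcam1 (3.26), the glucose transporter Slc2a6 (3.90) and the chemokines Cxcl10 (5.62) and Ccl5 (4.01). Of 24 receptors and adaptors, 5 rose and 3 fell, with the co-stimulatory receptor Cd40 at 4.83 and the Toll-like receptors Tlr3 at 1.16, Tlr2 at 0.87 and Tlr1 at 1.11. Of 30 subunit, kinase and inhibitor genes, 1 rose (the kinase gene Ikbke, 4.29) and 2 fell (Card9, -1.33, and Tab2, -0.49).

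Immediate early and dissociation genes moved with the same days. Of 22 tested, 20 fell on day 13 (median -2.49) and 20 on day 21 (median -1.55), and 0 rose. Their summed level was 38416 and 34952 CPM on day 0 (WT, then KO), 6708 and 9430 on day 13, and 9239 and 11852 on day 21. Nfkbiz and Cd14 are highest in the libraries where this list is highest, and its part in their fall was not tested. Markers of T cells summed to 237 CPM in the microglia-like cells of the WT library of day 21 and to 15.3 to 54.3 CPM in the other 5, and monocyte/macrophage markers summed to 144 and 170 CPM on day 0 (WT, then KO), 938 and 1107 on day 13, and 713 and 313 on day 21, with 0 to 2 of the 10 markers at 0. Bcl3 and Sod2 were high where these markers were high, and the part of either list was not tested. In a clustering of the same cells, cluster 0 held 93.2% and 87.1% of microglia-like cells of day 0 and at most 6.19% of any later library, and cluster 3 held 75.9% and 78.5% of those of day 13.

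Neutrophil-like cells gained Cd14 where microglia-like cells lost it. Their Cd14 levels were 11.6 and 15.8 CPM on day 0 (WT, then KO), 68.2 and 93.4 on day 13, and 33.9 and 28.1 on day 21. Both day 13 libraries lay above all others and both day 0 libraries below. Cd14 rose by 2.41 (SE 0.326, adjusted p = 3.26e-05) on day 13, under every alternative run, and then fell by 1.17 (SE 0.199, adjusted p = 0.00113) between days 13 and 21, a call lost with DESeq2's test (adjusted p = 0.0714). The change from day 0 to day 13 was 3.90 (SE 0.338, adjusted p = 8.86e-28) greater in neutrophil-like than in microglia-like cells. It was tested in edgeR as an interaction with library as a block. The p-value uses only the libraries of days 0 and 13 and a spread estimated across genes. Its size therefore says little about the spread of Cd14 itself between these libraries. In all, 7.3% of 9852 genes passed that test. Among the 10 genes, Cd14 alone passed it, and the next was Nfkbia (0.61, adjusted p = 0.0531). The thinned share of neutrophil-like cells with a Cd14 UMI was 1.27% and 1.35% on day 0, 9.90% and 13.7% on day 13, and 4.77% and 3.40% on day 21. The unthinned shares of day 13 were 20.3% and 31.9%. Monocyte/macrophage markers moved with Cd14 in this class: their sum was 7768 and 6770 CPM on day 0, 18520 and 16104 on day 13, and 12683 and 6336 on day 21, with 5 of the 10 markers at 0 in both libraries of day 0 and 0 to 2 at 0 later. Chil3 had 6118 and 5106 CPM on day 0 and 13837 and 11506 on day 13, Ly6c2 1344 and 1377 CPM on day 0 and 3559 and 3516 on day 13, and Ccr2 0 and 3.15 CPM on day 0 and 4.87 and 3.93 on day 13. Their part in the rise of Cd14 was not tested.

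In all, 4 of 9 members tested rose in neutrophil-like cells on day 13 and 1 fell, where 9% of 6153 genes rose and 7.3% fell. The make-up of the class moved with the day: cluster 7, led by Ltf and Ly6g, held 69.2% and 60.8% of it on day 0 and 28.7% and 33.0% on day 13, cluster 9, led by Stfa genes and Retnlg, went from 24.9% and 33.8% to 50.2% and 52.8%, and cluster 12, led by Fcnb and Elane, from 5.91% and 5.41% to 20.8% and 13.7%. The part of this shift in the members' changes was not tested. Bcl3 rested on only 3 and 1 UMIs on day 0 (WT, then KO), or 3.15 and 3.15 CPM. Its levels were 29.2 and 27.5 CPM on day 13, and 17.9 and 25.2 on day 21. It rose by 2.94 (SE 0.529, adjusted p = 0.000614) on day 13, under every alternative run, and by 2.63 (SE 0.543, adjusted p = 0.00817) on day 21, where the adjusted p was 0.125 without the WT library of day 0; on day 21 it was the member called, 1 of 9, against 2.45% of all genes higher and 0.943% lower. Nfkbiz fell by 1.58 (SE 0.3, adjusted p = 0.000996), with adjusted p of 0.122 and 0.125 without the WT library of day 0 or of day 13. Of 16 immediate early and dissociation genes tested in this class, 8 fell and 1 rose on day 13 (median -0.66), and their part was not tested. Nfkbia rose by 0.75 (SE 0.197, adjusted p = 0.0125) and lost its call without the WT library of day 0 or the KO library of day 13 (adjusted p = 0.122 and 0.250). Sod2 rose by 0.81 (SE 0.258, adjusted p = 0.0371), and its adjusted p lay between 0.102 and 0.557 without the WT library of day 0, the WT library of day 13 or the KO library of day 13. From day 13 to day 21, Nfkbiz rose by 1.04, a call lost without the WT library of day 13 or of day 21 (adjusted p = 0.593 and 0.304), so that 1 member rose and 1 fell, against 2.31% and 3.33% of all genes (1 and 2 with class-total scaling).

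**Figure D3:**
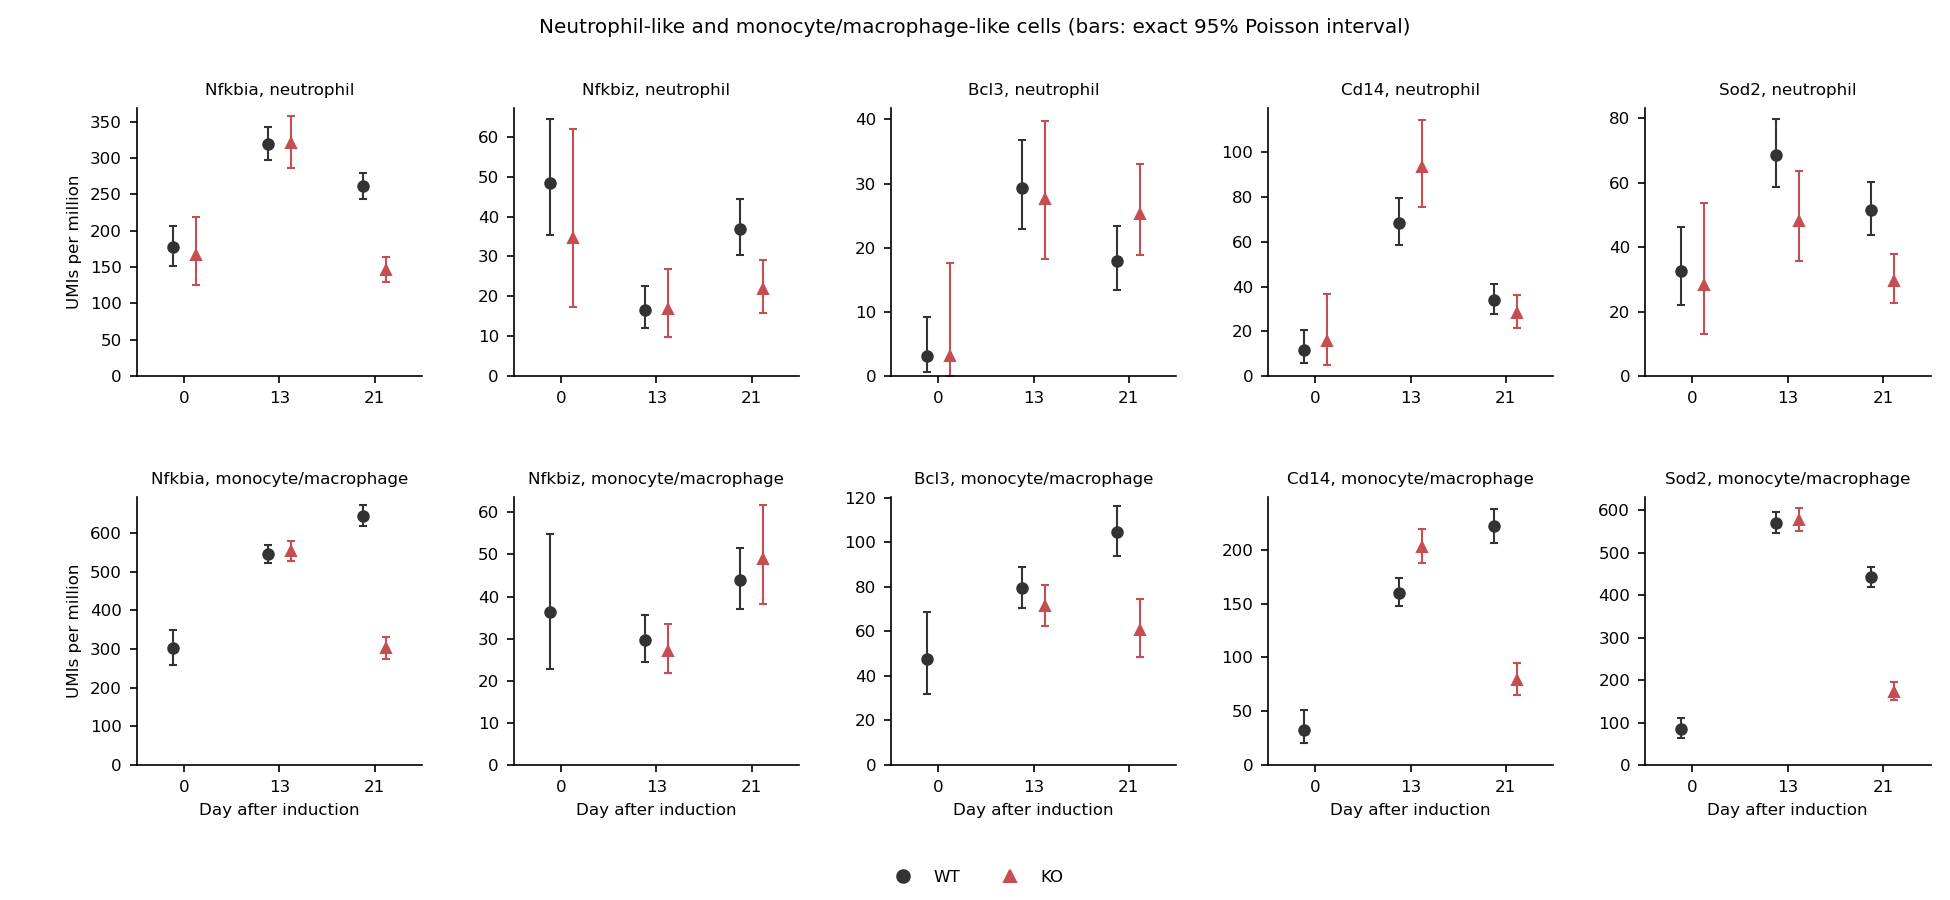
Level of 5 of the genes by day after induction in neutrophil-like (top) and monocyte/macrophage-like cells (bottom), in CPM; 1 point per library, circles WT and triangles KO, with exact 95% Poisson intervals. In the bottom row the KO library of day 21 is at 303 for Nfkbia, 78.9 for Cd14 and 173 for Sod2, below both libraries of day 13.

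Other classes gave few calls by day. In T-like cells on day 13, Bcl3 (1.42) and Tnf (1.98) rose and Nfkbiz (-0.94) and Cd14 (-2.77) fell. These were 2 and 2 of 10 against 6.97% and 6.86% of all genes, and class-total scaling gave 3 and 1. Counts were low: on day 0 (WT, then KO) Bcl3 had 4 and 5 UMIs, Tnf 3 and 1, and Cd14 6 and 7. On day 13 Cd14 had 7 and 0 UMIs. Each of these 4 calls was lost without at least 1 library: the adjusted p was 0.443 for Bcl3 and 0.310 for Nfkbiz without the WT library of day 0, 0.604 for Tnf without the WT library of day 13 and 0.332 for Cd14 without the KO library of day 0. The Cd8-led cluster 10 took 56.9% and 59.3% of this class at day 0 but 25.5% and 23.6% at day 13, and cluster 5, with Cd4 among its leading genes, took 33.6% and 33.7% and then 57.7% and 60.5%. Of 19 immediate early and dissociation genes, 15 fell and 1 rose in T-like cells on day 13, and 13 fell and 0 rose of 19 in B-like cells; the part of either shift was not tested. T-like Nfkb1 did not pass, at 0.06, and its change was 0.81 (SE 0.284, adjusted p = 0.0416) above that of microglia-like cells, where 10.5% of genes differed. In B-like cells Bcl3 rose by 1.79 (SE 0.424, adjusted p = 0.0086) on day 13, 1 of 7 tested against 8.36% of all genes, and its adjusted p was 0.194 without the WT library of day 0; class-total scaling added 1 lower member, and 6.8% of all genes fell. On day 21, 0 of the 10 genes in T-like cells and 0 of 7 in B-like cells passed against day 0 (7.48% and 7.44% of all genes). An unadjusted p under 0.05 in edgeR was found for 5 and 3 members, against 1348 of 7072 and 1180 of 5645 genes. Class-total scaling gave 1 and 0 calls. Against day 13 the counts were 0 and 0 (2.39% and 0.407%). There, 2 and 0 members had an unadjusted p under 0.05 in edgeR, against 975 of 7072 and 375 of 5645 genes. NK-like cells, compared on days 0 and 21, had lower Nfkbia (-0.72) and Icam1 (-1.30) on day 21, 0 higher and 2 lower of 5 tested against 6.51% and 4.85% of all genes, and 0 and 3 with class-total scaling. Without a filter on low counts the adjusted p was 0.179 for Nfkbia and 0.0922 for Icam1, and DESeq2's test gave 0.489 for Nfkbia. In the same cells 10 of 15 immediate early and dissociation genes fell, and their part was not tested. In monocyte/macrophage-like cells, Nfkb1 rose by 0.75 (SE 0.163, adjusted p = 0.0219) and Sod2 fell by 1.09 (SE 0.277, adjusted p = 0.0419) between days 13 and 21, against 3.24% and 3.46% of all genes. The fall of Sod2 was unequal, from 571 to 443 CPM in WT and from 578 to 173 CPM in KO. With DESeq2 size factors 1 rose and 0 fell. Both calls were lost when the class was taken from clusters (adjusted p = 0.215 and 0.417).

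Genotype was tested over days in each class, with day as a block, so that the libraries of other days served as the replicates. None of the 51 gene and class values passed in edgeR (0 of 51), 6 had an unadjusted p under 0.05, and DESeq2 gave 0 and 0. Of these 6, 1 lay in neutrophil-like and 1 in T-like cells, against 732 of 6153 and 540 of 7072 genes. The others lay in monocyte/macrophage-like cells and are described below. All genes gave 0.0575% called in microglia-like cells, 0.011% in monocyte/macrophage-like, 0.325% in neutrophil-like, 1.03% in T-like, 0% in B-like and 0.415% in NK-like cells. On simulated counts the same test recovered 32.6% of 2-fold and 97.1% of 4-fold changes in microglia-like cells (10328 genes). It recovered 21.2% and 92.1% in monocyte/macrophage-like cells (9121 genes). The simulation used a set spread and a change equal on every day, so it does not give the recovery of a change that differs between days. In monocyte/macrophage-like cells 4 of the 10 genes had an unadjusted p under 0.05 in edgeR, all lower in KO, against 322 of 9102 genes in either direction. The median of the 10 was -0.49 against 0.00 for all genes. Without a filter on low counts Sod2 passed there in edgeR at -0.66 (SE 0.178, adjusted p = 0.0423). With the filter its difference was much the same, at -0.65, and the SE was 0.275.

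Within days, 1 KO library was set against 1 WT library with no test and no replicate check, and a gene was counted when it was 1.5-fold or more apart with 10 CPM or more in either library. The largest count was in monocyte/macrophage-like cells of day 21. There, 6 of the 10 genes were lower in KO and 0 were higher, where 7.99% of 6908 genes were lower and 10% higher. The median log2 ratio of the 10 was -0.84 and that of all genes 0.05. The count was 6 to 7 with other class assignments, scaling or cell filters and 4 at a 2-fold threshold.

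**Figure D4:**
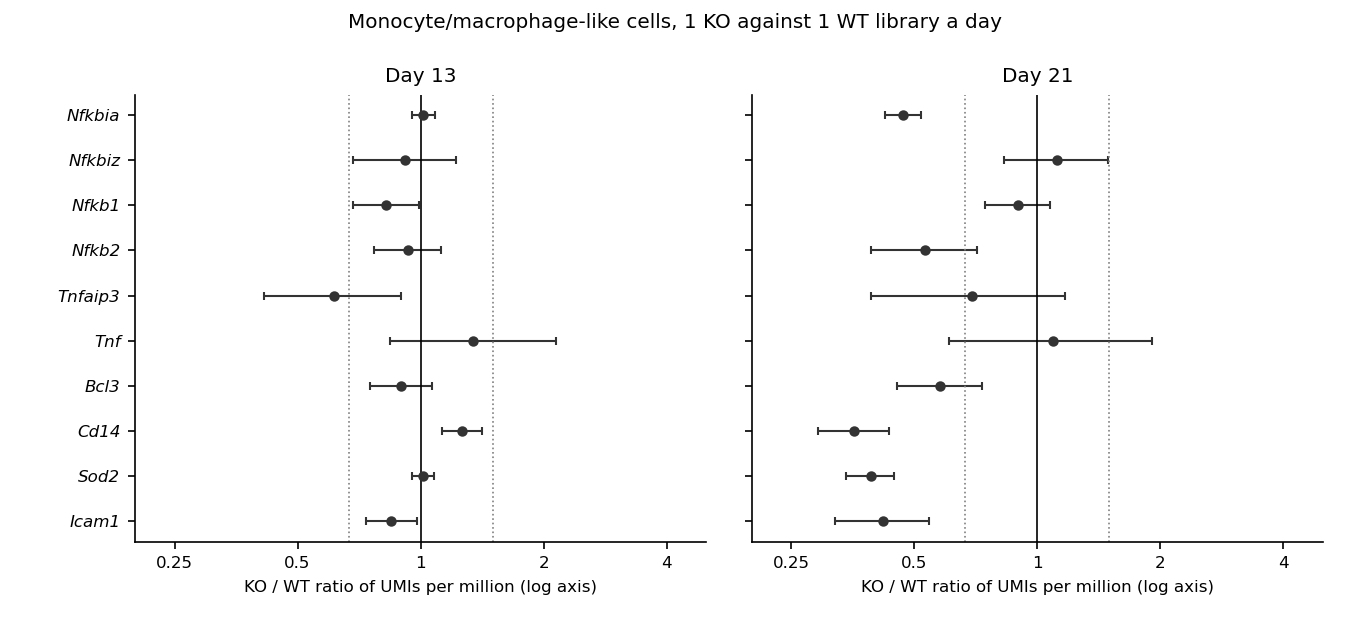
Ratio of KO to WT in monocyte/macrophage-like cells on day 13 (left) and day 21 (right), on a log axis; points are ratios of CPM of 1 library each, bars exact conditional 95% intervals that cover counting error only, and dotted lines mark 1.5-fold. On day 21, Cd14, Sod2, Icam1, Nfkbia, Nfkb2 and Bcl3 lie left of the lower dotted line, and on day 13 Tnfaip3 alone does.

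Cd14 had the lowest ratio of the 10 on that day. Its levels in this class were 32.9 CPM in the WT library of day 0, 160.3 and 203 on day 13 (WT, then KO), and 222 and 78.9 on day 21. The KO library of day 21 lay between the WT library of day 0 and all 3 other later libraries, with a KO to WT ratio of 0.356 (95% interval 0.29 to 0.433). On day 13 the ratio was 1.27 (95% interval 1.13 to 1.42). Sod2 was 84.0 CPM in the WT library of day 0, 571 and 578 on day 13 (WT, then KO), and 443 and 173 on day 21. The libraries of day 13 did not differ by more than 1.5-fold, and the ratio of day 21 was 0.391 (95% interval 0.341 to 0.446).

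Icam1 had 18.1 CPM in the WT library of day 0, 120.0 and 102 on day 13 (WT, then KO), and 112 and 47.0 on day 21. Its ratio of 0.42 (95% interval 0.32 to 0.544) on day 21 followed one of 0.848 (95% interval 0.733 to 0.98) on day 13. Nfkbia was 301 CPM in the WT library of day 0, 546 and 554 on day 13 (WT, then KO), and 645 and 303 on day 21. The KO library of day 21 was at the level of the WT library of day 0, and the ratio was 0.469 (95% interval 0.423 to 0.52). For Nfkb2 the levels were 29.6 CPM in the WT library of day 0, 66.0 and 61.3 on day 13 (WT, then KO), and 73.0 and 38.8 on day 21, with a ratio of 0.532 (95% interval 0.391 to 0.712), and for Bcl3 they were 47.8 CPM in the WT library of day 0, 79.3 and 71.2 on day 13 (WT, then KO), and 105 and 60.6 on day 21, with a ratio of 0.578 (95% interval 0.453 to 0.732). These 6 genes include a subunit gene, a cytoplasmic and a nuclear IkB gene, and 3 of the 4 targets. The subunit gene Nfkb1 and the nuclear IkB gene Nfkbiz were not among them.

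The other 4 genes did not reach 1.5-fold on day 21. Nfkbiz had a ratio of 1.12 (95% interval 0.83 to 1.49), Nfkb1 of 0.897 (95% interval 0.746 to 1.08), Tnfaip3 of 0.692 (95% interval 0.391 to 1.17) and Tnf of 1.09 (95% interval 0.608 to 1.90). Tnf counts there were 42 and 20 UMIs, so its interval is wide. On day 13, 1 of the 10 was lower and 0 higher, against 2.89% and 1.55% of all genes, and it was Tnfaip3 at 0.612 (95% interval 0.413 to 0.897).

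By the share of cells, thinned to 1500 UMIs, Nfkbia was seen in 49.1% of WT and 29.4% of KO monocyte/macrophage-like cells on day 21, and Sod2 in 35.5% and 17.1%. Before thinning these shares were 73.0% and 60.8%, and 58.7% and 51.4%, at median depths of 3927 and 5556 UMIs. On day 13 the thinned shares were 48.3% and 48.4% for Nfkbia and 44.7% and 45.5% for Sod2.

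The class itself was not made up alike in these 2 libraries. In the clustering, the monocyte/macrophage cluster held 82.6% of the WT and 60.8% of the KO cells of day 21, and 93.4% and 91.8% on day 13, while on day 21 a progenitor cluster held 7.93% and 16.3%, a conventional dendritic cluster 6.55% and 12.7%, and an unnamed cluster led by Ace, Ear2 and Treml4 0.756% and 9.80%. The gate markers Ly6c2 (2817 and 3262 CPM in WT and KO of day 21) and Ccr2 (978 and 1121) were within 1.5-fold, and Chil3 (6471 and 1394) and Arg1 (115 and 21.8) were lower in KO; their part in the ratios was not tested. Over 5 settings, 1 of them with the class taken from clusters instead of the gate, the highest ratios were 0.442 for Cd14, 0.436 for Sod2, 0.520 for Icam1, 0.507 for Nfkbia, 0.532 for Nfkb2 and 0.587 for Bcl3. The summed immediate early and dissociation genes were 8889 and 8834 CPM in these WT and KO cells.

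**Figure D5:**
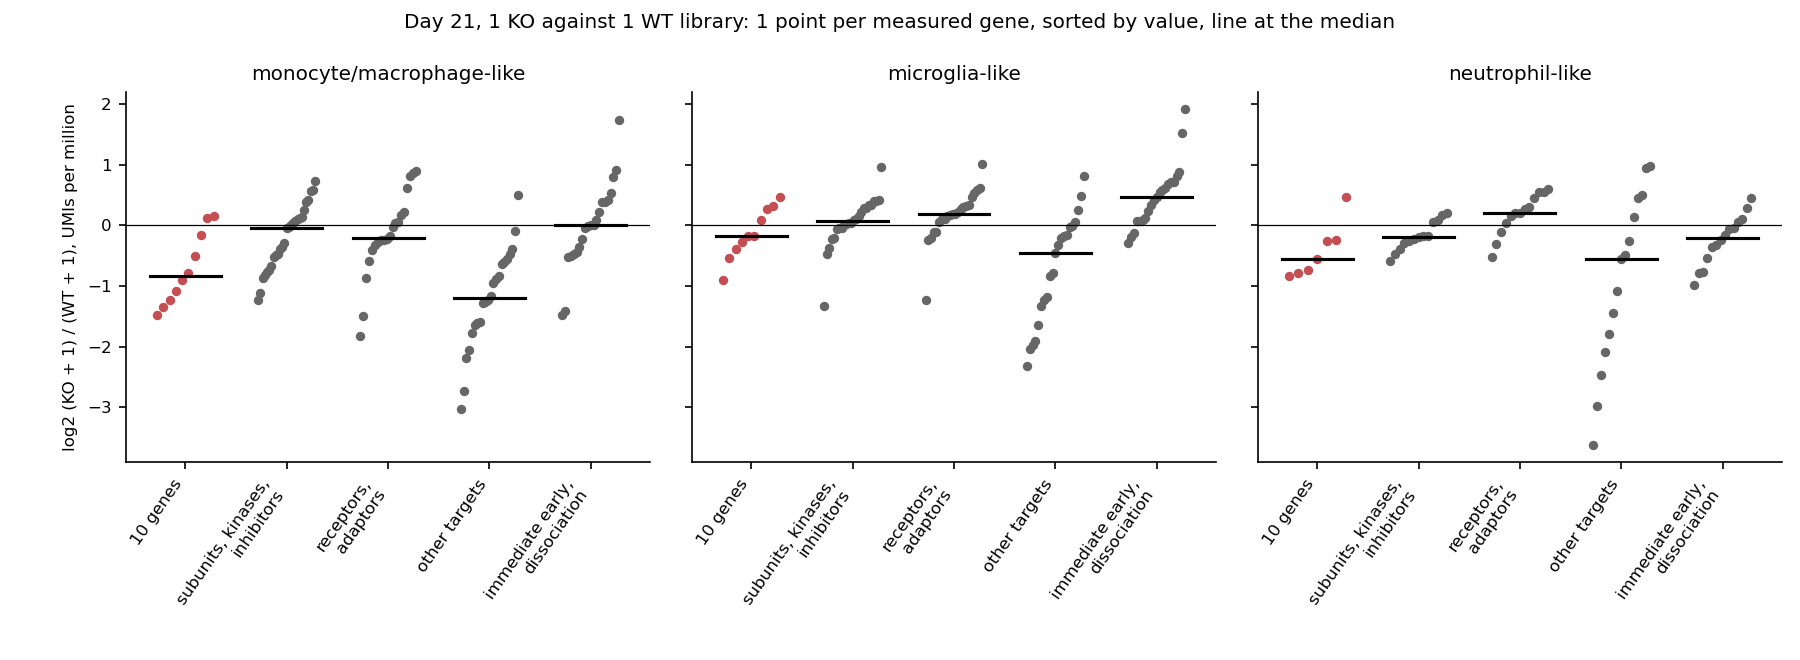
Log2 ratio of KO to WT on day 21 for the 10 genes (red) and 4 gene lists (grey) in 3 myeloid classes. Each point is 1 measured gene, with 1 library a side and a line at each median. In monocyte/macrophage-like cells the medians are -0.84 for the 10 genes, -1.19 for other targets and 0.01 for immediate early and dissociation genes.

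Other NF-kB target genes, a list also chosen with earlier results of these data known, went the same way. On day 21, 18 of 22 measured in monocyte/macrophage-like cells were lower in KO and 0 higher, with a median of -1.19. The genes named here were chosen after their values were seen. Cxcl10, an interferon-inducible chemokine, was at 1115 and 135 CPM, a ratio of 0.121 (95% interval 0.105 to 0.14); Ccl2 at 0.218 (95% interval 0.175 to 0.268); Il1b at 0.292 (95% interval 0.255 to 0.332); and Clec4e at 0.325 (95% interval 0.261 to 0.4). On day 13, 0 of 22 were lower and 2 higher. Of 27 subunit, kinase and inhibitor genes, 7 were lower and 3 higher on day 21 (median -0.05), and of 20 receptors and adaptors 4 were lower and 4 higher (median -0.20). Of 21 immediate early and dissociation genes, 2 were lower and 3 higher.

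Microglia-like cells of day 21 had 1 of the 10 genes lower in KO, Bcl3 at 0.506 (95% interval 0.298 to 0.886), and 0 higher, against 6.45% and 10.6% of 7539 genes. Cd14 was higher in KO at a ratio of 1.38 (95% interval 1.23 to 1.55) and Nfkbia lower at 0.691 (95% interval 0.627 to 0.761), both under 1.5-fold. Of 21 other targets, 10 were lower and 1 higher, with a median of -0.45, and Ccl5 (0.255), Cxcl10 (0.241) and Il1b (0.258) were among the lower. On day 13, Nfkbiz was higher in KO at 1.76 (95% interval 1.35 to 2.28), 1 higher and 0 lower of 10 against 4.94% and 4.63% of genes, and 0 of the 9 measured were apart on day 0, against 2.73%. On day 13, 11 of 19 immediate early and dissociation genes were also higher in KO, and on day 21 8 of 21 were higher and 0 lower (median 0.47); their part in the ratios of Nfkbiz and Cd14 was not tested. The microglia-like cells of the KO library of day 21 lay in other clusters than those of the WT library: 69.8% against 33.0% in cluster 2, 10.9% against 56.7% in cluster 3, and 9.54% against 0.759% in cluster 16. Cluster 16 was led by Lpl, Spp1 and Folr2 and scored highest for border-associated macrophage markers. Of its 241 cells over all libraries, 196 passed the microglia gate alone and 1 the border-associated macrophage gate alone.

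In neutrophil-like cells of day 21, the KO to WT ratio was 0.559 (95% interval 0.488 to 0.64) for Nfkbia, 0.592 (95% interval 0.409 to 0.844) for Nfkbiz and 0.575 (95% interval 0.42 to 0.778) for Sod2, so that 3 of 7 measured were lower in KO and 0 higher, where 20.1% of 4826 genes were lower and 4.19% higher. Gate markers took 386671 and 461880 CPM of the WT and KO class totals, and their part in these ratios was not tested. Earlier, 1 of 6 was lower on day 0 (Nfkb1; 22.2% of genes lower, 14.3% higher) and 0 of 7 were apart on day 13 (21.1%). In the other classes the counts of members lower and higher in KO were 0 and 4 of 9 in T-like cells of day 0 (22.3% and 18.6% of all genes), 2 and 0 of 10 in T-like cells of day 21 (8.96% and 11.3% of all genes) and 1 and 1 of 9 on day 13 (10.4% and 7.82%). They were 1 and 4 of 9 in B-like cells of day 0 (25.1% and 20.3%), 0 and 0 of 7 on day 13 (18.8% in either direction) and 2 and 0 of 7 on day 21 (12.7% and 23.8%). NK-like cells had 3 and 2 of 10 on day 0 (26.7% and 25%) and 4 and 0 of 8 on day 21 (21.6% and 25.7%), and plasmacytoid dendritic-like cells 1 and 1 of 8 on day 13 (15.7% and 15.5%).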

How the data were processed

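The deposited values were whole-number counts of UMIs per gene and barcode, made by the authors with Cell Ranger 2.0.2 and the mm10 build per the submitters' processing notes. How barcodes were filtered before deposit is not given in the sources used here. Cells with under 200 genes (0) or over 10% mitochondrial UMIs (23 of 20030) were removed. A cell was given a class when it held at least 5 microglia markers, 5 monocyte markers, 6 neutrophil markers or 4 of another list and passed no other gate. No doublet caller was run, and cells that passed several gates (3666) were left out. Sums over the cells of a class in a library were tested with edgeR 4.0.16 (quasi-likelihood, trimmed-mean scaling, low-count filter, Benjamini-Hochberg adjustment over all genes at 0.05), with DESeq2 1.42.0 as an alternative. Each group was 1 library, so genotype was replicated over days and day over genotypes.

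Intervals are 95%, exact, and cover counting error only, since 1 library a side gives no replicate check. Shares of cells were compared after thinning to 1500 UMIs. Levels come from 3' ends with no length scale, so they are not compared between genes. Clusters were made with scanpy 1.11.5 and leidenalg 0.10.2. All 10 genes are described, and from each pathway list up to 4 genes with the smallest adjusted p, unless stated. The members and lists were chosen with earlier results of these data known; the gate sizes, the tests of class by day and class-total scaling were chosen with the data in hand. The edgeR step was tested on simulated data. Alternatives were other gates, clusters as classes, scaling, filters, DESeq2 and leaving out each library.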

Additional observations from a re-analysis of the deposited data

Results flagged for a closer look

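The KO to WT ratio of some genes turned between days, each ratio being 1 library against 1, so the difference between days was not tested. Cd14 in microglia-like cells had ratios of 0.942 on day 0, 0.816 on day 13 and 1.38 on day 21, and in monocyte/macrophage-like cells of 1.27 on day 13 and 0.356 on day 21. Nfkbia in microglia-like cells had ratios of 1.08 and 1.27 on days 0 and 13 and of 0.691 on day 21. Nfkbiz in the same class had 0.822 on day 0 and 1.76 on day 13, and Sod2 had 1.32 on day 13 and 0.757 on day 21.

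Among changes from day 0 to day 13 that differed between classes by a test of the difference itself, Cd14 was 3.90 (log2) higher in neutrophil-like than in microglia-like cells, with values of 2.41 and -1.27 in the fits of each class. Nfkb1 was 0.81 higher in T-like than in microglia-like cells (adjusted p = 0.0416 in edgeR), with no call in T-like cells themselves.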

How the results depend on the processing

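Of 33 class calls and 29 day calls among the 10 genes, 20 and 6 held under every alternative that gave a value. The day calls that held were Bcl3 in microglia-like cells on both later days and in neutrophil-like cells on day 13, Cd14 in both classes on day 13, and Sod2 in microglia-like cells on day 13. Over these called values, 669 alternative results kept their call, 113 lost it and 2 turned; 3 had no adjusted p under DESeq2. Those that turned were Nfkbia and Nfkbiz in neutrophil-like cells against other classes, at -0.51 and -0.64 with class-total scaling, an alternative chosen after seeing the data. Day calls numbered 11 with DESeq2, and 13 to 35 leaving out each library, the lowest without the WT library of day 0. Class calls ranged from 29 to 38 without 1 library. Genotype calls numbered 1 with no filter on low counts and 0 under the others, which include leaving out each library. Monocyte/macrophage-like and NK-like cells had only 4 libraries in the day and genotype fits. Leaving out 1 of those left too few for a fit, so their day and genotype results had no such check. At a 2-fold threshold, 20 within-day ratios were counted in place of 39. Where the cause is not part of the alternative's construction, the cause was not tested. The genotype test has day as a block, which pairs the libraries of a day, and with no day term it also called 0. Beyond this block no paired analysis was possible because each group held 1 library. Depth limits the low genes most: Tnfaip3 in monocyte/macrophage-like cells of day 21 rests on 63 and 19 UMIs.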

Other observations

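Mature dendritic-like cells were too few to compare (28 WT and 48 KO cells on day 13, 23 and 9 on day 21), and their values are given as levels only. Nfkb2 stood at 366 and 399 CPM on day 13 and 339 and 327 on day 21, and Nfkbia at 1299 and 1644, and 1767 and 1075 CPM. Icam1 had 226 and 323 CPM on day 13. Tnf had 0 and 1 UMIs and Cd14 0 and 3 UMIs in these libraries of day 13.

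Across 36 sums of class and library and 7319 genes, the genes whose log2 levels were most like a member were described by Pearson's r, with no test, since sums share libraries and depth. Nfkb2 was most like Ddx54 and Relb (r = 0.91 for each), Icam1 like Calr (0.95), Cd14 like Sirpa and Rin2 (0.86 for each), and Sod2 like Arg1 (0.85). The lowest best match was that of Nfkbia, with Pik3r2 (0.72).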
